A study of Mus musculus with 14 samples.

Results

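Transcripts that mark fat cells were read heart by heart in mouse hearts with and without a cardiomyocyte knockout of Fam210a, together with Car3. The 8 transcripts are Adipoq, Cfd, Retn, Lep, Plin1, Cidec, Fabp4 and Car3, taken as listed rows from 53735 gene symbols in each of the deposited count tables. They were listed because their values had been seen to differ between the groups, so the differences given for them are descriptions and carry no test. RNA came from 14 hearts of male C57BL/6 mice, all of which carried the alphaMHC-driven MerCreMer transgene and had received tamoxifen. Knockout hearts (cKO, Fam210afl/fl, alphaMHCMCM/+) and control hearts (alphaMHCMCM/+) were taken about 5 weeks after tamoxifen (early, 4 cKO and 4 control) or about 10 weeks after it (late, 3 cKO and 3 control). The alphaMHC (Myh6) promoter drives the recombinase in cardiomyocytes, so fat cells, vessels and other cells of a cKO heart keep the gene. The labels do not say that each library is a separate animal, and p-values then measure only the spread between these samples.

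Fat cells store triglyceride in a large lipid droplet and release hormones and enzymes into the blood. Adipoq encodes adiponectin, Cfd the complement protease adipsin, Retn resistin and Lep leptin, all secreted by white fat in mice. Plin1 and Cidec encode proteins of the droplet surface, which guard the stored lipid and join droplets. Fabp4 encodes the fatty acid carrier of fat cells, which capillary endothelium and macrophages also make. Car3 encodes a cytosolic carbonic anhydrase that is abundant in fat, slow skeletal muscle and liver. White fat lies along the base and the vessels of the mouse heart outside the muscle. In whole hearts, fewer cells of a type and less RNA per cell cannot be told apart.

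Early libraries held 15657298 to 19466469 reads and late libraries 29989076 to 35750964. A count of 3 reads corresponded to 0.150 to 0.192 CPM early and 0.0853 to 0.103 CPM late, where CPM is the read count scaled to the TMM-adjusted library size. Fam210a, the targeted gene, stood at 146 ± 10.2 CPM in early cKO hearts and 170 ± 6.04 CPM in early controls (SD, n = 4 each), and at 66.8 ± 3.41 CPM in late cKO hearts and 128 ± 7.27 CPM in late controls (SD, n = 3 each); a gene on the other strand overlaps it, and the kit does not tell their reads apart. The labels of early cKO replicate 4 disagree, its title naming the knockout and its genotype field the control. It was kept in the cKO group, and its Mthfd2 level, an mRNA of mitochondrial folate metabolism chosen here after its values were seen, was 29.2 CPM, against 1.35 to 3.08 CPM in the 4 controls. Early and late counts come from separate tables, and levels are not compared between times.

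The promoters of 3 fat cell transcripts that followed one another across the hearts are shown to set out what lies before their starts. RefSeq promoters on GRCm38.p6 were matched by symbol for 6 of the 8 genes, with 7 entries, 1 for each start. The 150 bases before the start of Adipoq (chr16:23146386-23146535, plus strand), Cfd (chr10:79890703-79890852, plus strand) and Cidec (chr6:113435761-113435910, minus strand) are given 5′ to 3′, with CCAAT boxes on either strand in capitals.
Adipoq: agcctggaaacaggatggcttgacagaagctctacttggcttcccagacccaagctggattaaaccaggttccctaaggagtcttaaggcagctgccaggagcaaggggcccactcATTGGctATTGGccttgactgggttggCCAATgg
Cfd: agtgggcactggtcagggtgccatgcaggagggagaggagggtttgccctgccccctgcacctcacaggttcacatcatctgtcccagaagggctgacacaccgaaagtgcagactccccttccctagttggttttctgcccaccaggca
Cidec: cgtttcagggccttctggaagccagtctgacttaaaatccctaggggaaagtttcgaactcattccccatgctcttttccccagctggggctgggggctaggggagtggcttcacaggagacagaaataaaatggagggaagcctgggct

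The Adipoq promoter held 3 CCAAT matches, whose first bases lie 34, 27 and 7 bases before the start. At least 1 CCAAT on either strand was in 33.8% of all 32851 RefSeq mouse promoters over the same 250 bases. The C/EBP letters TTNNGCAA, in 9.56% of promoters, were found before the starts of Lep, Plin1 and the inner start of Cidec. The letters AGGTCANAGGTCA, a perfect form of the repeat bound by PPARG with RXR, were in 0.0335% of promoters and in none of the 7 entries. Neither AGGTCA alone (14% of promoters, and contained in the longer motif) nor TATAAA (12.4%) was in any of the 7. A match is a run of letters and not a shown binding site, and the window holds no distant enhancer.

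The secreted products Adipoq and Cfd were higher in 3 of 4 early cKO hearts than in every early control. Adipoq, on chromosome 16 from 23146536 to 23158028 (GRCm38, GENCODE M21, plus strand), had 5, 40, 47 and 21 reads in early cKO replicates 1 to 4, against 7, 6, 3 and 0 reads in control replicates 1 to 4. Early cKO replicate 1 lay inside the range of the controls, and the groups overlapped. The mean was 1.55 ± 0.971 CPM in cKO and 0.248 ± 0.193 CPM in control hearts (SD, n = 4 each). Cfd (chromosome 10, 79890853 to 79892655) followed the same hearts, with 10, 71, 184 and 98 reads in cKO and 17, 8, 5 and 3 reads in controls. Its log2 fold change, cKO over control, was 3.28 with a standard error of 0.67, and cKO replicate 1 was again within the control range.

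Retn (chromosome 8, 3655770 to 3660110) was near the counting limit early, with 2, 9, 11 and 2 reads in cKO and 1, 2, 0 and 0 reads in control hearts. Its higher values were in cKO replicates 2 and 3. Lep (chromosome 6, 29060220 to 29073877) had 0, 0, 3 and 1 reads in cKO and 0 reads in each of the 4 controls, which are at or under the 3-read limit throughout. No difference in Lep was detectable at this depth.

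The droplet proteins showed the same 3 high hearts. Plin1 (chromosome 7, 79720218 to 79732903) had 4, 21, 24 and 26 reads in early cKO hearts and 4, 1, 1 and 1 reads in controls. Cidec (chromosome 6, 113424634 to 113435760) had 7, 37, 39 and 30 reads in cKO and 5, 2, 2 and 2 reads in controls. Replicate 1 of each group was close together for both, so that Plin1 in cKO replicate 1 passed control replicate 1 only through library size (0.254 against 0.239 CPM). In a fit without a filter on low counts the log2 fold changes were 2.64 for Adipoq, 3.21 for Plin1, 3.18 for Cidec and 2.69 for Retn.

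Car3 (chromosome 3, 14863512 to 14872523) had 25, 135, 251 and 154 reads in early cKO hearts, against 26, 15, 13 and 2 reads in early controls. On the CPM scale every cKO heart was above every control, but cKO replicate 1 (1.58 CPM) and control replicate 1 (1.56 CPM) were all but equal. The mean was 7.75 ± 4.56 CPM in cKO and 0.866 ± 0.590 CPM in control hearts (SD, n = 4 each), a log2 fold change of 3.17 with a standard error of 0.58. With early cKO replicate 4 left out it was 3.10, and with that library counted as a control it was 1.54.

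Fabp4 (chromosome 3, 10204088 to 10208576) did not follow the other fat cell transcripts. It had 422, 430, 409 and 410 CPM in early cKO hearts, against 412, 381, 445 and 459 CPM in controls, and its log2 fold change was -0.02 with a standard error of 0.06. The groups overlapped, and the highest heart was 1.21 times the lowest. Over the same 8 hearts Car3 spanned 106-fold and Cidec 18.1-fold.

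**Figure D1:**
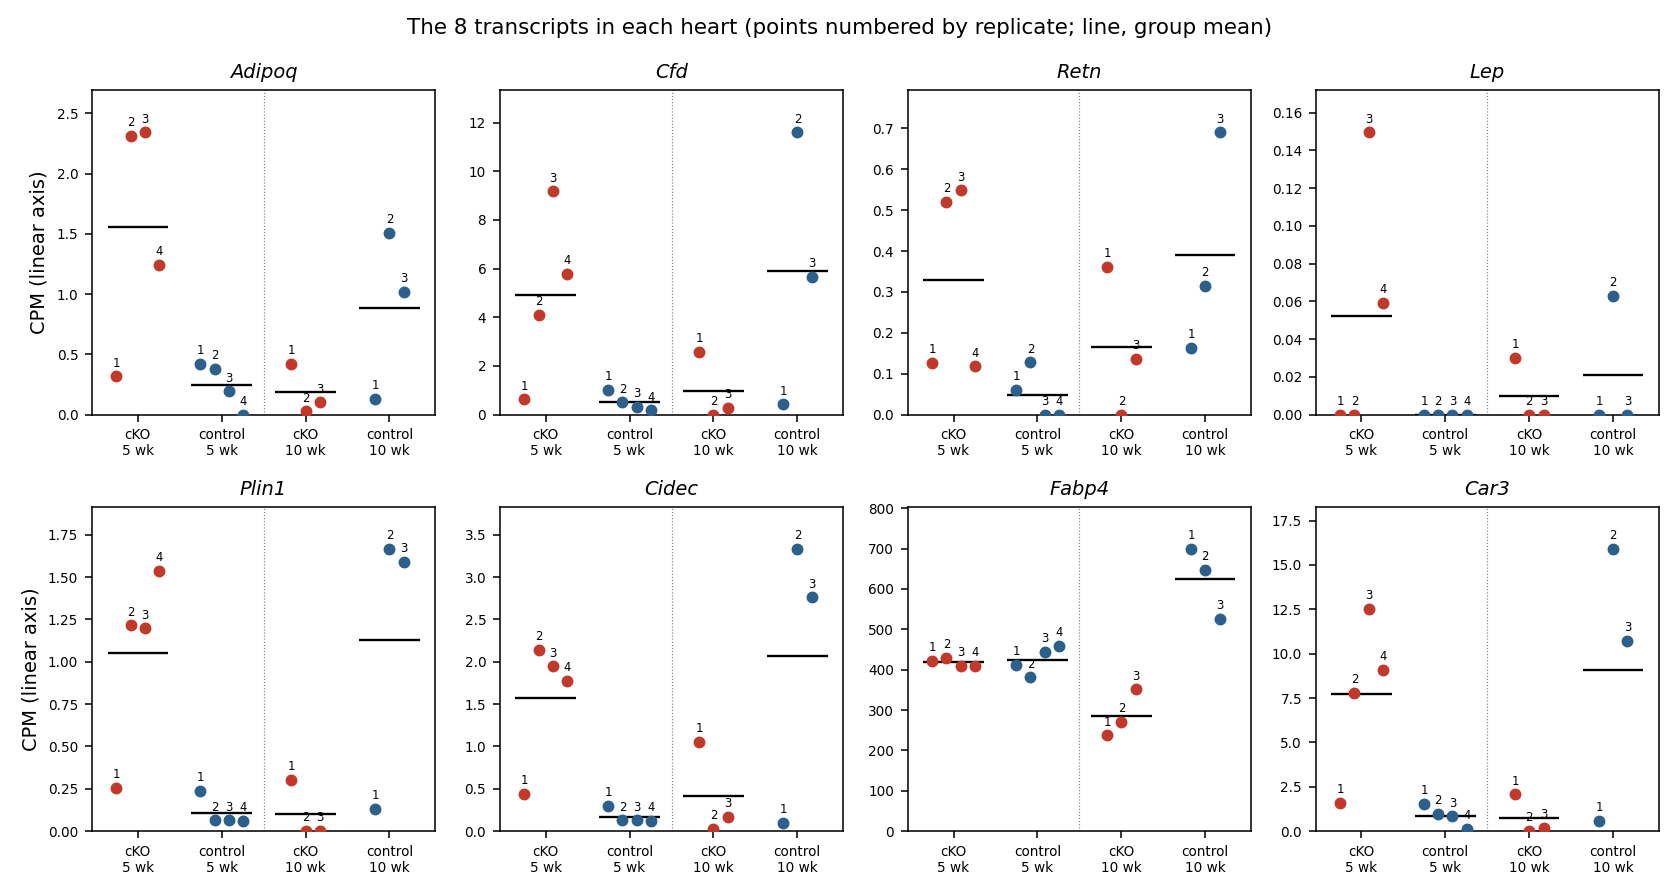
Level of each of the 8 transcripts in CPM (linear axes, 1 panel per gene) in every heart, with cKO left of control at about 5 and about 10 weeks; points are hearts numbered by replicate, black lines group means. In 6 of the panels early cKO replicate 1 and late control replicate 1 stand with the low hearts of their table, while Fabp4 stays between 381 and 459 CPM early and Lep is at 3 reads or fewer in every heart.

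Of the 8 transcripts, 3 passed the filter on low counts early and 1 (Car3) was called by edgeR's quasi-likelihood test at a Benjamini-Hochberg adjusted p under 0.05, beside 0.613% of all genes tested. That test called 70 genes higher and 13 lower in cKO hearts, and DESeq2 called 124 higher and 52 lower. The count of called members was 0 to 5 over the alternatives: it was 0 without any 1 of cKO replicates 2 and 3 and control replicates 2, 3 and 4, and 5 without cKO replicate 1. It was also 0 with replicate 4 counted as a control. Between early groups, 3 members (Car3, Plin1 and Cidec) had every cKO heart above every control, beside 2.98% of all genes tested. These counts come from the contrast that the genes were listed on.

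In late hearts the direction was the opposite, and replicate 1 of each group stood apart from the other hearts of its group. Adipoq had 14, 1 and 3 reads in late cKO replicates 1 to 3, against 4, 48 and 34 reads in control replicates 1 to 3. Cfd had 86, 0 and 8 reads in cKO and 13, 369 and 189 reads in control hearts. Retn had 12, 0 and 4 reads in cKO and 5, 10 and 23 reads in controls. For all 3, cKO replicate 1 exceeded control replicate 1, and the groups overlapped. Their log2 fold changes were -2.25 for Adipoq, -2.62 for Cfd and -1.24 for Retn, with standard errors of 0.88, 1.17 and 0.84. Lep had 1, 0 and 0 reads in cKO and 0, 2 and 0 reads in control hearts.

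Plin1 had 10, 0 and 0 reads in late cKO hearts and 4, 53 and 53 reads in late controls. Cidec had 35, 1 and 5 reads in cKO and 3, 106 and 92 reads in controls, a log2 fold change of -2.29 with a standard error of 1.06. Control replicate 1 was the lowest control for both, and cKO replicate 1 was the highest cKO heart.

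Car3 had 69, 1 and 5 reads in late cKO hearts, against 18, 506 and 358 reads in late controls. The mean was 0.759 ± 1.14 CPM in cKO and 9.08 ± 7.79 CPM in control hearts (SD, n = 3 each). Control replicate 1, at 0.586 CPM, was below cKO replicate 1, at 2.08 CPM. The log2 fold change was -3.56 with a standard error of 1.17. Without late cKO replicate 1 it was -6.53, and the folds of Adipoq, Cfd and Retn were then -3.74, -5.50 and -2.56. Plin1 was then at 0 reads in both remaining cKO hearts, which puts it at least 10.98-fold lower than in control hearts, with the limit taken at 3 reads per library.

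Fabp4 was lower in all 3 late cKO hearts, with 237, 271 and 351 CPM, against 699, 648 and 526 CPM in control hearts. It was the 1 member whose late groups did not overlap, where 35.9% of all genes tested had every cKO heart below every control. Its log2 fold change was -1.12 with a standard error of 0.17, and it lay between -1.28 and -0.997 when each heart was left out in turn. Late, 6 members passed the filter and 3 (Car3, Adipoq and Fabp4) were called by edgeR, beside 65.0% of all genes tested. Over the alternatives that count was 1 to 6, and Fabp4 was called in each. DESeq2 called 2 members, Adipoq and Fabp4. Dropping cKO replicate 2 or control replicate 2 left 1 called member, dropping control replicate 3 left 2, and dropping replicate 1 of either group gave 6.

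Car3 and most of the fat cell transcripts ordered the hearts much as Adipoq did. Of the 28 pairs of early hearts, Car3 ranked 25 in the order that Adipoq gave, Cfd 26, Cidec 24, Retn 23, Plin1 22, Lep 12 and Fabp4 7. Of the 15 pairs of late hearts, Car3 and Cfd each ranked 15 in that order, Plin1 and Cidec 14, Retn 13, Fabp4 10 and Lep 8; Lep was tied in 15 early and 6 late pairs. Early 16 and late 9 of these pairs set a cKO against a control heart, and on those the genes tend to the same order because they were listed for a difference between the groups. Of the 12 early pairs within a group, Car3 and Cfd ranked 11 in the Adipoq order, Cidec 10, Retn 9, Plin1 8, Lep 4 and Fabp4 3. Of the 6 late pairs within a group, Car3, Cfd and Cidec ranked 6, Plin1 and Retn 5, Lep 4 and Fabp4 2. These counts describe 8 and 6 hearts of similar depth within a table.

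**Figure D2:**
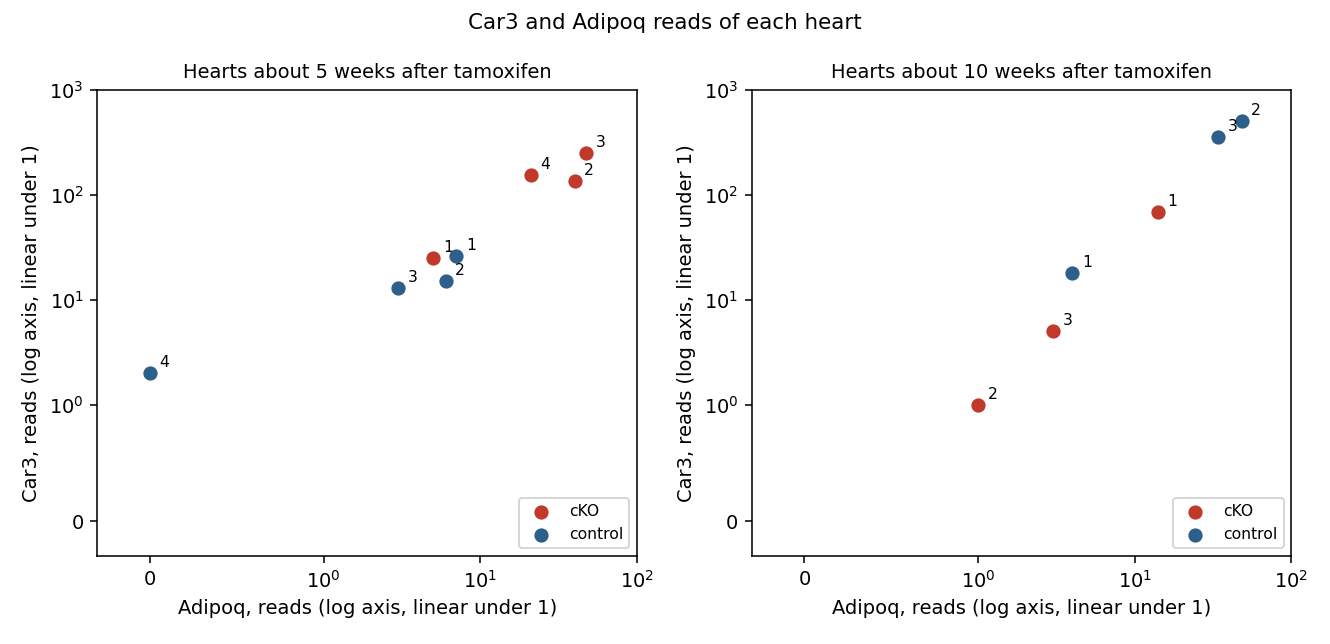
Car3 reads against Adipoq reads of each heart (both axes logarithmic above 1 read and linear below), early on the left and late on the right, red for cKO and blue for control, numbered by replicate. Early cKO replicate 1 (5 Adipoq and 25 Car3 reads) lies among the controls, and late cKO replicate 1 (14 and 69 reads) lies between late control replicate 1 (4 and 18) and the other late controls.

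A ratio of reads within a heart does not depend on scaling between hearts. Early, Car3 had 5.00, 3.38, 5.34 and 7.33 reads per Adipoq read in cKO hearts, against 3.71, 2.50 and 4.33 in control replicates 1 to 3; control replicate 4 had no Adipoq read. Summed over each group it was 5.00 in cKO (95% exact interval 4.08 to 6.17) and 3.50 in controls (1.98 to 6.54). Intervals are exact binomial (Clopper-Pearson) ones on the reads and cover counting error only. Set against the 6 fat cell transcripts together (Adipoq, Cfd, Plin1, Cidec, Retn and Lep), Car3 had 0.893, 0.758, 0.815 and 0.865 reads per read in early cKO hearts. In early control hearts the values were 0.765, 0.789, 1.18 and 0.333, the last from 2 Car3 reads. The group sums gave 0.816 (0.729 to 0.914) in cKO and 0.8 (0.553 to 1.153) in controls, and these intervals overlapped. Car3 itself differed 9.01-fold. Car3 and the 6 transcripts were listed for a difference between the same groups, which cancels in part in their ratio. The control interval is also too wide to show that the ratios are equal.

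Late, the ratio was lower in cKO hearts. Car3 had 0.437, 0.500 and 0.250 reads per read of the 6 transcripts in late cKO hearts, against 0.621, 0.861 and 0.916 in late controls. The group sums were 0.417 (0.314 to 0.548) in cKO and 0.875 (0.798 to 0.959) in controls, and these intervals did not overlap. Of the 75 Car3 reads in late cKO hearts 69 came from replicate 1, whose interval (0.324 to 0.583) was below those of control replicates 2 (0.763 to 0.971) and 3 (0.791 to 1.06) and overlapped that of replicate 1 (0.325 to 1.16). Per Adipoq read, the late sums were 4.17 (2.47 to 7.41) in cKO and 10.3 (8.21 to 13.0) in controls for Car3. For Cfd they were 5.22 (3.13 to 9.19) in cKO and 6.64 (5.28 to 8.43) in controls. For Cidec they were 2.28 (1.28 to 4.21) in cKO and 2.34 (1.81 to 3.04) in controls. For Plin1 they were 0.556 (0.229 to 1.27) in cKO and 1.28 (0.956 to 1.72) in controls, and for Retn 0.889 (0.424 to 1.85) in cKO and 0.442 (0.293 to 0.654) in controls. The intervals of Cfd, Cidec, Plin1 and Retn overlapped between the groups, and those of Car3 did not, although the Plin1 ratio lay about as far apart as that of Car3 and rests on 10 Plin1 reads in cKO hearts. Those of Fabp4 did not overlap either, at 1537 (972 to 2593) in cKO and 693 (561 to 867) in controls. By heart, however, the Fabp4 ratio was 563, 9541 and 3413 in cKO and 5368, 429 and 516 in controls, and the groups overlapped. Car3 reads per Adipoq read were, by heart, 4.93, 1 and 1.67 in cKO and 4.5, 10.5 and 10.5 in controls. For Car3 too the groups overlapped, since cKO replicate 1 was above control replicate 1. Intervals on group sums pool the reads of several hearts, leave out the spread between hearts and are no test of the groups.

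**Figure D3:**
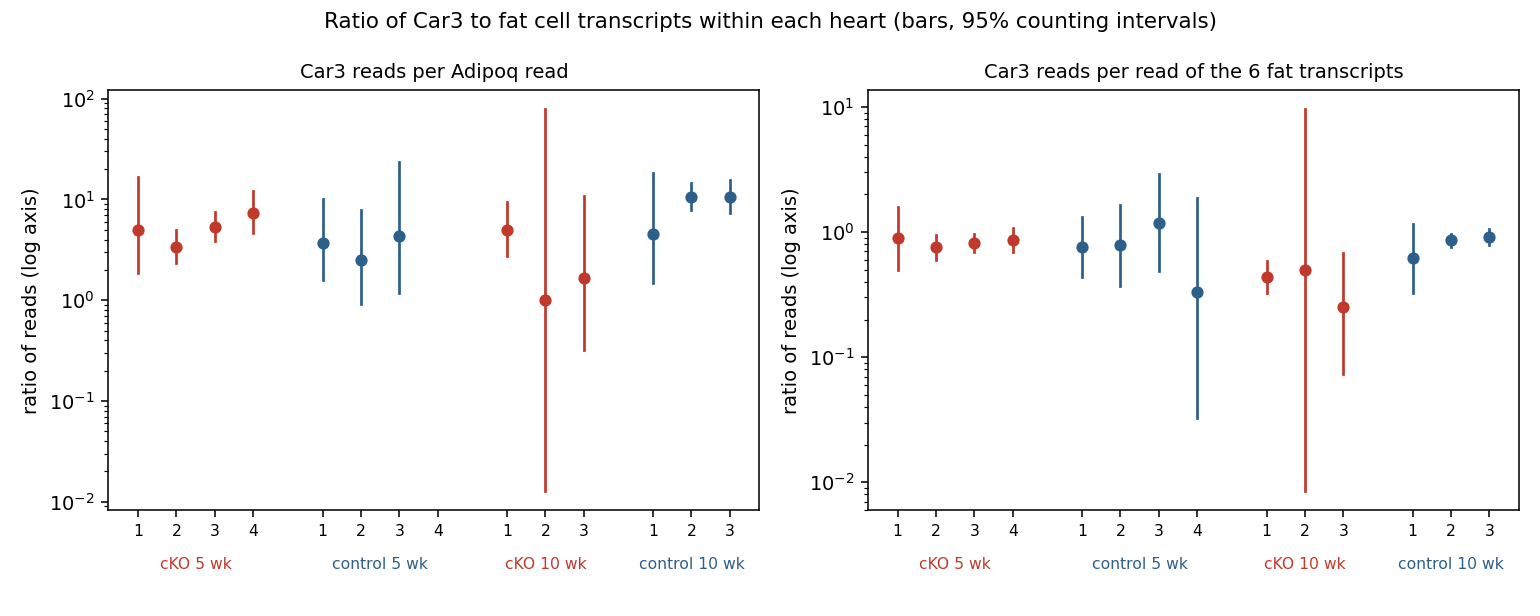
Reads of Car3 per Adipoq read (left) and per read of the 6 fat cell transcripts (right) in each heart, on logarithmic axes; bars are 95% exact counting intervals, red for cKO and blue for control, and the early control with no Adipoq read has no point on the left. On the right, early cKO hearts lie between 0.758 and 0.893 and early control hearts between 0.333 and 1.18, while late cKO replicate 1 stands at 0.437 and late control replicates 2 and 3 at 0.861 and 0.916.

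With the Adipoq level of each heart as a covariate in the edgeR fit, the Car3 log2 fold change was 0.94 with a standard error of 0.49 early and -0.49 with a standard error of 0.40 late. With the mean level of the 7 other members as the covariate it was 0.16 (standard error 0.48) early and -0.34 (standard error 0.31) late. Without a covariate it was 3.17 and -3.56. The covariate itself differed between the groups.

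The level of a transcript that separated the genotypes was set beside the fat cell transcripts. Mthfd2 stood at 44.5, 57.2, 60.8 and 29.2 CPM in early cKO hearts, against 2.69, 2.23, 1.35 and 3.08 CPM in early controls. Early cKO replicate 1, whose 6 fat cell transcripts summed to 1.77 CPM against 2.03 CPM in control replicate 1, thus had a Mthfd2 level within the range of the other cKO hearts. Late, Mthfd2 was at 329, 293 and 356 CPM in cKO hearts and at 2.18, 2.36 and 2.49 CPM in controls. The 6 transcripts then summed to 4.76 CPM at most and 0.0569 CPM at least in cKO hearts, and to 18.5 CPM at most and 0.944 CPM at least in controls.

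**Figure D4:**
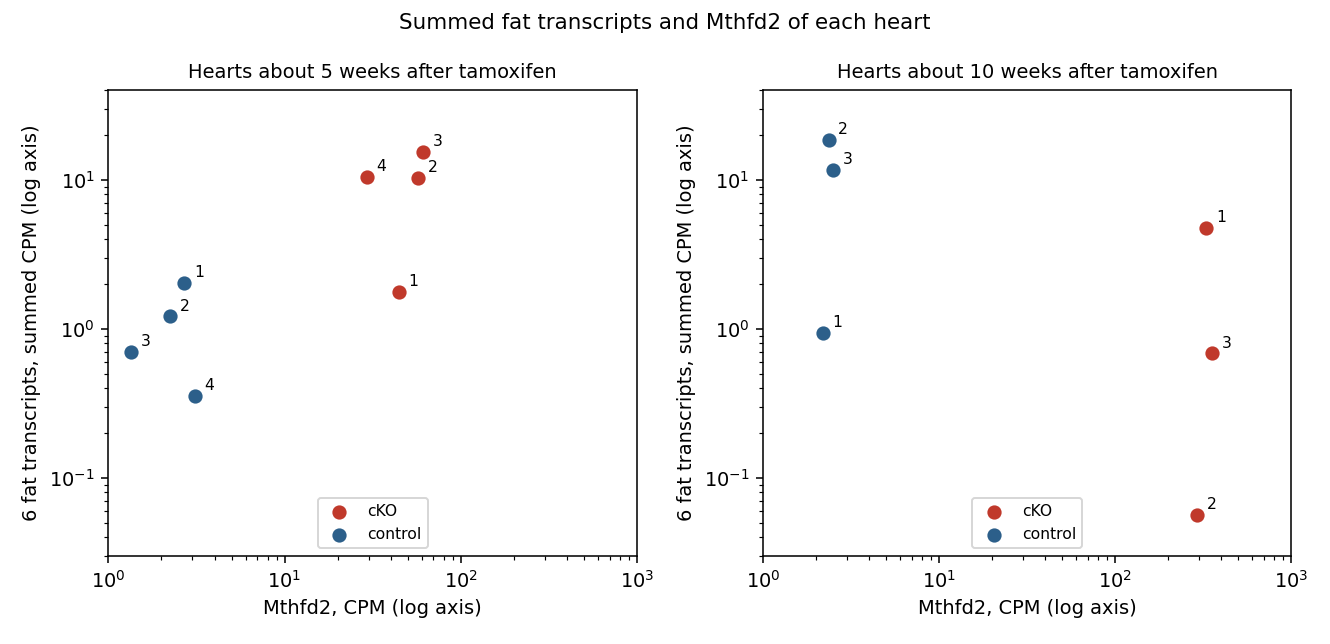
Summed level of the 6 fat cell transcripts (CPM, log axis) against Mthfd2 (CPM, log axis) in each heart, early on the left and late on the right, red for cKO and blue for control, numbered by replicate. Mthfd2 separates the genotypes at both times, while early cKO replicate 1 and late cKO replicate 1 lie within the vertical range of the controls.

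Genes with the pattern most like Adipoq and Car3 were sought over all tested genes by Pearson correlation of log2 CPM, leaving out predicted genes, pseudogenes and the members. Early, over 8 hearts, Cyp2e1, an oxidase of liver and fat, was the most like both (r = 0.97 with each). It had 8, 61, 105 and 66 reads in cKO hearts and 20, 13, 11 and 1 reads in controls, so cKO replicate 1 was again within the control range. Next to Adipoq came Thoc5, of an mRNA export complex, and Anapc15, of the anaphase-promoting complex, whose log2 fold changes were 0.14 and 0.29. Late, over 6 hearts, Pck1, the cytosolic PEP carboxykinase that fat cells use to make glycerol phosphate, was the most like both (r = 0.98 with Adipoq and 0.99 with Car3). It had 14, 0 and 1 reads in cKO hearts and 6, 72 and 31 reads in controls. Next to Adipoq came Kcnh1 (r = 0.98, all but equal to Pck1) and Syn3 (r = 0.97), and next to Car3 came Crybb3 (r = 0.98). None of these next genes is in the fat cell lists below. Of the 10 genes nearest to Adipoq and the 10 nearest to Car3, 7 were shared early and 6 late, and 0 were shared between early and late for either gene. Late Cyp2e1 was at 174, 2 and 7 reads in cKO and 15, 176 and 257 reads in control hearts. Summed over each group, that is 10.2 reads per Adipoq read in cKO (6.25 to 17.5) and 5.21 in controls (4.13 to 6.64). By heart the ratio was 12.4, 2 and 2.33 in cKO and 3.75, 3.67 and 7.56 in controls. The groups overlapped, the higher cKO sum came from cKO replicate 1, and the other cKO hearts were below every control.

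The other genes of fat were read from lists, which were chosen with earlier results of these data known and hold no member. Early, none of the 100 tested genes of the 19 lists was called by edgeR, 20 had an unadjusted p under 0.05 (over all genes tested this share was 10.3%), and DESeq2 called 2, both among PPAR targets of the heart. In the list of other fat cell markers, 9 of 15 genes could be tested. Pparg, the nuclear receptor that directs fat cell formation, was at 9.60 ± 1.09 CPM in cKO and 11.9 ± 1.52 CPM in control hearts (SD, n = 4 each; adjusted p = 0.361 by edgeR). The remaining 6 of that list were under the filter, among them Pck1 with 9, 22, 46 and 18 reads in early cKO hearts and 7, 5, 1 and 3 reads in controls. Lgals12, a galectin of fat cell droplets, had 2, 3, 8 and 3 reads in cKO and 1, 0, 1 and 0 reads in control hearts. Ucp1, which defines brown fat, had at most 1 read in any early heart and at most 2 reads in any late heart.

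Late, edgeR called 86 of 111 tested list genes, 27 higher and 59 lower in cKO hearts, which is 77.5% beside 65.0% of all genes. Over all genes tested 31.8% were called higher and 33.2% lower in late cKO hearts, and the counts by direction of each list stand against these shares. Among other fat cell markers 9 of 11 tested were called, 3 higher and 6 lower, with a median log2 fold change of -1.11 beside -0.02 over all genes. Adig, a droplet regulator of fat cells, rose to 3.85 ± 1.31 CPM in cKO, against 0.511 ± 0.267 CPM in controls (SD, n = 3 each; adjusted p = 0.000173 by edgeR). Aqp7, the glycerol channel of fat and heart, fell to 1.69 ± 0.0800 CPM, against 38.8 ± 5.10 CPM in controls (adjusted p = 1.88e-07 by edgeR). Neither followed the Adipoq order: Aqp7 was 1.63, 1.68 and 1.78 CPM in the 3 cKO hearts and 40.3, 43.0 and 33.1 CPM in the controls. Pck1 did follow it and was called (log2 fold change -2.85, adjusted p = 0.0353 by edgeR), and that call was lost with DESeq2 (adjusted p = 0.126), without cKO replicate 2 (adjusted p = 0.0981, edgeR) and without control replicate 2 (adjusted p = 0.168, edgeR).

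Car3 was also set beside the other carbonic anhydrases, enzymes that hydrate carbon dioxide. Early, 0 of 8 tested were called by edgeR, 3 had an unadjusted p under 0.05 (10.3% over all genes), and DESeq2 called 0. Late, 9 of 10 tested were called, 1 higher and 8 lower in cKO hearts (31.8% and 33.2% over all genes), with a median log2 fold change of -1.56 beside -0.02 over all genes. Car14, a membrane form of muscle, fell to 26.8 ± 4.94 CPM in cKO, against 171 ± 35.0 CPM in controls (SD, n = 3 each; adjusted p = 4.62e-06 by edgeR). Car6, the secreted form of saliva, rose to 1.17 ± 0.554 CPM, against 0.0105 ± 0.0181 CPM in controls (adjusted p = 0.000150 by edgeR).

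Beside Plin1 and Cidec, the lipid droplet proteins that cardiomyocytes also use were read. Early, 0 of 11 tested were called by edgeR and by DESeq2, and 2 had an unadjusted p under 0.05 (10.3% over all genes). Late, 4 of 11 rose and 5 fell (31.8% and 33.2% over all genes). Plin2, the coat protein of droplets outside fat, rose to 142 ± 13.3 CPM in cKO, against 63.6 ± 4.18 CPM in controls (adjusted p = 3.26e-05 by edgeR), and Fitm1, which aids droplet budding, fell to 8.66 ± 1.64 CPM, against 90.5 ± 11.7 CPM (adjusted p = 9.16e-07 by edgeR; SD, n = 3 each). Adiponectin and leptin receptors and binding proteins gave 2 higher and 2 lower of 5 tested late, and complement genes of the pathway that adipsin activates gave 1 higher and 5 lower of 7. Genes of fatty acid and triglyceride synthesis gave 5 higher and 4 lower of 11, with Mlxipl at 6.07 ± 1.51 CPM in cKO and 49.1 ± 6.20 CPM in control hearts (SD, n = 3 each; adjusted p = 2.82e-06 by edgeR).

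The lists less close to fat were counted in the same late test. Of brown fat markers, 1 rose and 1 fell of 4 tested, with Cidea, a droplet protein of brown fat and mouse heart, at 77.5 ± 24.0 CPM in cKO and 26.2 ± 4.25 CPM in control hearts (SD, n = 3 each; adjusted p = 0.000232 by edgeR). PPAR targets of the heart gave 4 higher and 3 lower of 10, with Angptl4, an inhibitor of lipoprotein lipase, at 64.8 ± 10.97 CPM in cKO and 8.19 ± 2.40 CPM in control hearts (SD, n = 3 each; adjusted p = 5.79e-06 by edgeR). All 4 tested smooth muscle genes and both tested Schwann cell genes fell, where 33.2% of all genes did, and fibroblast and fat progenitor genes gave 1 higher and 3 lower of 6. Dpt, a matrix protein of fibroblasts, fell to 26.9 ± 1.96 CPM in cKO, against 126 ± 9.57 CPM in controls (SD, n = 3 each; adjusted p = 1.01e-06 by edgeR). Skeletal muscle genes gave 2 higher and 3 lower of 5, and the 1 tested gene each of the liver and lung lists (Ttr and Ager) rose, to 0.428 ± 0.0523 and 3.09 ± 0.470 CPM in cKO, against 0.104 ± 0.01395 and 0.458 ± 0.104 CPM in controls. No gene of the 8 in the thymus list passed the filter.

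Fabp4 was read beside endothelial genes, since capillaries of the heart express it. Early, 0 of 12 endothelial genes were called by edgeR, 2 had an unadjusted p under 0.05 (10.3% over all genes), and DESeq2 called 0. Their summed level was 1619 to 1674 CPM in cKO and 1593 to 1793 CPM in control hearts. Late, 0 of 12 rose and 10 fell, where 31.8% of all genes rose and 33.2% fell, with a median log2 fold change of -1.18, beside -1.12 for Fabp4. Gpihbp1, the capillary protein that carries lipoprotein lipase, went the other way, at 120 ± 26.2 CPM in cKO and 88.1 ± 16.2 CPM in control hearts (SD, n = 3 each; adjusted p = 0.0555 by edgeR). It was called higher by DESeq2 (adjusted p = 0.0392), without a filter (adjusted p = 0.0222, edgeR), without cKO replicate 1 (adjusted p = 0.0382, edgeR) and without control replicate 1 (adjusted p = 0.0365, edgeR). The summed level was 892 to 963 CPM in late cKO hearts and 1810 to 2043 CPM in late controls. Cav1, the coat protein of caveolae, fell to 43.5 ± 7.62 CPM in cKO, against 278 ± 14.05 CPM in controls (SD, n = 3 each; adjusted p = 1.30e-06 by edgeR). Fabp5, a related carrier also made by endothelium, fell to 6.65 ± 1.79 CPM, against 30.4 ± 0.706 CPM (adjusted p = 1.13e-05 by edgeR). Fabp3, the other gene of this carrier list tested late, rose to 2531 ± 934 CPM in cKO, against 1531 ± 237 CPM in controls (adjusted p = 0.0260 by edgeR). That call of Fabp3 was lost in 5 of 13 alternatives. The late median log2 fold change of the other fat cell markers (-1.11) also lay near that of Fabp4 (-1.12). The part of endothelial or fat cell RNA in the Fabp4 difference was not tested.

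**Figure D5:**
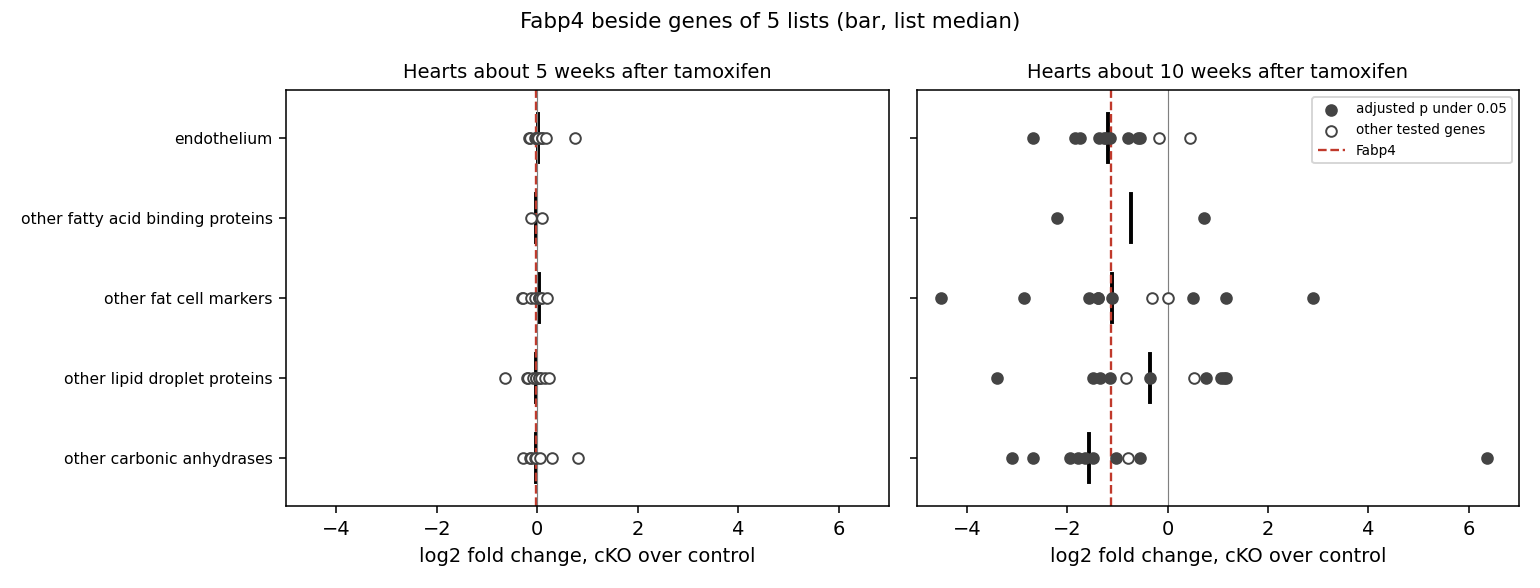
Log2 fold changes, cKO over control, of the tested genes of 5 lists, early on the left and late on the right; filled points have an edgeR adjusted p under 0.05, black bars are list medians and the dashed red line is Fabp4. Early the points cluster near 0 and none is filled. Late the medians of the endothelial genes (-1.18) and of the other fat cell markers (-1.11) both lie beside Fabp4 (-1.12).

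Markers of other tissues in or near the heart were read as well. Genes of the atrium varied between hearts of both genotypes: their summed level was 7.54, 683, 33.2 and 23.4 CPM in early cKO hearts and 75.4, 9.69, 7.50 and 10.6 CPM in early controls. Late it was 355, 29.1 and 47.8 CPM in cKO and 48.0, 67.9 and 435 CPM in control hearts. Bmp10, made in the right atrium, was at 165 CPM in early cKO replicate 2 and at 0 reads in the other 3 early cKO hearts. The early cKO hearts with high fat cell transcripts (replicates 2, 3 and 4) thus also had the higher atrial sums of their group, as did late cKO replicate 1. Among early controls, replicate 1 had both the highest fat cell sum (2.03 CPM) and the highest atrial sum, and late control replicates 2 and 3 exceeded replicate 1 in both sums. Other hearts differed in order. Early cKO replicate 2 had the highest atrial sum, but its fat cell sum was 10.3 CPM, against 15.4 CPM in replicate 3. Early control replicate 4 had the lowest fat cell sum (0.356 CPM) but a higher atrial sum than replicates 2 and 3. Late control replicate 3 had a higher atrial sum than replicate 2, but a lower fat cell sum (11.7 against 18.5 CPM). Of 6 mesothelial genes, which mark the heart's outer lining, 2 were tested early and 4 late. The 6 summed to 11.98, 6.89, 7.18 and 8.56 CPM in early cKO hearts and 6.88, 6.82, 7.18 and 6.64 CPM in early controls. Early cKO replicate 1, lowest of its group in the fat cell sum, was thus highest in this sum. Late the 6 summed to 8.46, 9.18 and 5.96 CPM in cKO and 5.05, 11.7 and 10.6 CPM in control hearts. Upk3b, a mesothelial gene among the 10 late genes most like Adipoq, had 19, 12 and 11 reads in late cKO and 13, 70 and 58 reads in late control hearts. It was the 1 called (lower) of the 4 tested. The other 3 were not called late: Msln was at 1.77 ± 0.748 CPM in cKO and 1.05 ± 1.01 CPM in control hearts, Upk1b at 0.369 ± 0.0730 CPM in cKO and 0.166 ± 0.142 CPM in control hearts, and Wt1 at 4.99 ± 1.95 CPM in cKO and 5.88 ± 1.71 CPM in control hearts (SD, n = 3 each). The median log2 fold change of the 4 was 0.26.

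The 10 skeletal muscle genes of the list, mostly of fast fibres, summed to 15.3, 19.0, 26.2 and 22.9 CPM in early cKO hearts and 19.6, 17.4, 16.2 and 22.5 CPM in early controls. Late they summed to 16.1, 9.24 and 9.60 CPM in cKO and 17.6, 39.6 and 21.0 CPM in control hearts. That is the late Adipoq order of hearts except that replicate 1 of the groups changed places. Most of the sum in late controls was Mybpc2, a myosin-binding protein of fast muscle, which fell to 1.29 ± 0.599 CPM in late cKO hearts, against 22.4 ± 12.1 CPM in late controls (SD, n = 3 each; adjusted p = 4.65e-05 by edgeR). The fast myosin Myh4 had at most 2 reads in any heart, liver Alb at most 1 and lung Sftpc at most 1. The part of atrial, mesothelial, skeletal muscle or other neighbouring tissue in the differences of the fat cell transcripts was not tested.

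Between the times, the log2 fold change of Car3 was 6.71 lower late than early in a fit of all 14 libraries (-6.71, standard error 1.41). That difference was -4.87 for Adipoq, -5.88 for Cfd, -6.62 for Plin1, -5.46 for Cidec and -1.09 for Fabp4. Retn and Lep did not pass the filter of that fit. These values describe genes chosen from the same contrasts, and time, table and depth cannot be told apart.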

How the data were processed

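Messenger RNA of 14 mouse hearts was sequenced after TruSeq V2 library preparation from 100 ng of RNA, per the labels' protocols, a kit that does not mark the strand. Per the submitters' processing notes, tools included Trimmomatic 0.36 and STAR 2.6.0c, with genome build GRCm38. How reads were counted is not given in the sources used here. Each time point has 1 deposited table of whole-number counts per gene symbol, with no sign in the values of a normalization by the authors. Libraries of 1 group differed by a chi-square per gene of at least 3.88, so none was a copy of another.

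The members and all 19 gene lists (155 genes) were chosen with earlier results of these data known. Each whole table was fitted with edgeR 4.0.16 in R 4.3.3 (TMM, filterByExpr with minimum count 10 and minimum total 15, quasi-likelihood F test, Benjamini-Hochberg adjustment over all genes tested, called at 0.05). CPM values use TMM-scaled totals. Correlations of pattern used log2 CPM with a prior count of 2. Where a sentence names no other tool, an adjusted p is edgeR's. Named were the 8 members, Fam210a, up to 4 genes of smallest p per described list, and for Adipoq and Car3 the 10 genes of most like pattern; Mthfd2, Lgals12, Gpihbp1, the near-absent Ucp1, Myh4, Alb and Sftpc, early Bmp10 and the counts of Cyp2e1 and Pck1 in the other table were chosen after their values were seen. Coordinates come from GENCODE M21. Alternatives were DESeq2 1.42.0, library totals, no filter, a replicate block, leaving out each heart, replicate 4 as a control, and covariates. On simulated counts, the early design found 97% of genes changed 1.5-fold and 100% of those changed 3-fold (13431 genes, 5.29% of calls false), and the late design 38% and 100% (14664 genes, 1.43% false). How often a gene with counts as low and as spread as those of most members would be found was not tested. Replicate numbers did not pair the hearts.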

Additional observations from a re-analysis of the deposited data

Results flagged for a closer look

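Among 16 sets of 4 early hearts (8 members in 2 groups), 2 held a heart far from the other 3. Plin1 was at 0.239 CPM in early control replicate 1 and at 0.0593 to 0.0641 CPM in the other early controls. Cidec was at 0.299 CPM in the same heart and at 0.119 to 0.128 CPM in the others. These values rest on 4 and 5 reads, against 1 and 2 reads in each of the others, and chance alone can mark such sets. How often it does so at counts this low was not worked out, and both sets point to the same heart.

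For 6 members (Car3, Adipoq, Cfd, Plin1, Cidec and Retn) every early cKO heart was above the early control mean and every late cKO heart was below the late control mean. The share of all genes with this pattern is not given here. Early cKO replicate 1 was still below the highest control for Adipoq, Cfd and Retn. Late cKO replicate 1 was above the lowest control for all 6. The difference of the log2 fold changes, late minus early, was -6.71 for Car3, -4.87 for Adipoq, -5.88 for Cfd, -6.62 for Plin1 and -5.46 for Cidec. Retn did not pass the filter of that fit, and its log2 fold change was -1.24 late and, in a fit without a filter, 2.69 early. Since these genes were listed for the same values, the difference was not tested.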

How the results depend on the processing

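Apart from Fabp4 early, whose log2 fold change stayed between -0.07 and 0.02, no member with a compared fold changed direction under the alternatives. The covariate fits were compared for Car3 only, and Lep was not compared. Counting early cKO replicate 4 as a control gave early log2 fold changes of 1.54 for Car3, 1.58 for Cfd, 1.17 for Plin1 and 1.61 for Cidec, and late minus early differences of -5.08 for Car3, -4.11 for Adipoq, -4.17 for Cfd, -4.55 for Plin1 and -3.88 for Cidec. With the Adipoq level as a covariate the Car3 fold was 0.94 early and -0.49 late, and with the mean of 7 other members 0.16 and -0.34. Leaving out each heart in turn, early folds ranged from 2.80 to 3.63 for Car3, 2.23 to 3.03 for Adipoq, 2.78 to 3.88 for Cfd, 3.02 to 3.94 for Plin1 and 3.04 to 3.60 for Cidec. For Adipoq, Plin1 and Cidec this covers 5 of 8 fits, since they did not pass the filter without cKO replicate 2, 3 or 4. For late Plin1 it covers 4 of 6 fits, none of them without control replicate 2 or 3. Late folds ranged from -6.53 to -2.87 for Car3, -3.74 to -1.63 for Adipoq, -5.50 to -1.66 for Cfd, -8.19 to -2.80 for Plin1, -4.40 to -1.71 for Cidec and -2.56 to -0.54 for Retn, each lowest without late cKO replicate 1. The late minus early difference ranged from -9.64 to -6.04 for Car3, -6.32 to -4.27 for Adipoq, -8.72 to -4.94 for Cfd, -10.9 to -5.98 for Plin1 and -7.52 to -4.85 for Cidec, each lowest without that heart. Without it Plin1 had 0 reads in the remaining late cKO hearts, so its -8.19 and -10.9 depend on how the fit treats zeros and are not measured folds.

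The 83 early calls became 176 by DESeq2, 388 without a filter, 162 with replicate 4 as a control and 45 to 181 without single hearts. Early list genes called, 0 in the fit reported, were 2 by DESeq2, 13 without a filter, 4 with replicate 4 as a control, and 0 to 3 without single hearts. The 9714 late calls were 8539 to 10718 without single hearts. Same-numbered hearts of the groups had correlations of -0.09 to -0.04 early and -0.41 to -0.06 late, so the numbers were not taken as pairs; under the replicate block 78 early and 8374 late genes were called, the Car3 fold was 3.02 early and -3.68 late, and of the members only Fabp4 late was called. Adipoq, Plin1, Cidec, Retn and Lep did not pass the early filter, nor Plin1 and Lep the late one, so most alternatives gave them no value. Of the 10 named genes most like Adipoq, 4 early and 4 late stayed when Spearman replaced Pearson, and 1 early and 2 late with deviations from group means; for Car3 these were 3, 3, 1 and 2. Counts under about 3 reads limit Lep and Retn.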
